A study of Drosophila melanogaster with 12 samples.

Results

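The genes CG5953, CG12057, CG12780, CG30016 and Fst were picked because their transcripts were higher in tko25t mutant flies than in wild-type flies of both sexes. They are 5 of the 11981 genes that have a probe set of their own on the array, and they are read by 6 of its 18952 probe sets, since CG5953 has 2. The mutation tko25t changes mitoribosomal protein S12 and impairs mitochondrial translation. Mutant flies were the first-generation offspring of Canton S tko25t homozygous females and Oregon R tko25t males, and wild-type flies came from the same cross of strains without the mutation. In both genotypes the array was hybridised with RNA of whole adults, males or virgin females, aged 1 day, and there were 3 arrays for each genotype in each sex, 12 in all. Each array held RNA of its own group of flies, so p-values measure the spread between such groups. The mothers of the mutants were themselves mutant, so effects of the mother and of the fly's own genotype cannot be told apart here.

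The 5 genes were not picked by pathway, and the roles known for them differ. Fst, or Frost, encodes a secreted protein of gut and Malpighian tubule that is known in Drosophila for its induction during recovery from cold. CG12780 encodes a protein related to the Gram-negative binding proteins, which recognise sugars of microbial walls and feed the Toll pathway. CG30016 is a gene of the Malpighian tubule, the fly's kidney, and belongs to the transthyretin-like family, known for enzymes of urate breakdown and for carriers of hormones. CG12057 is a midgut gene without a known function. CG5953 is protein-coding and has 4 transcripts in RefSeq, and no function is given for it in the sources used here.

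Values are the authors' MAS5 signals, a linear intensity for each probe set. Folds are ratios of mean signals, and log2 fold changes were taken after adding 11.6, the median of the arrays' 25th percentiles, to each signal. Probe sets with an adjusted p under 0.05 by limma, over all those tested in a comparison, are said to be called. Because the genes were picked for the difference between genotypes, their values in that comparison are a description and carry no p-value. In whole flies, more RNA per cell and more cells of a tissue cannot be told apart.

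The arrays of a group correlated at 0.952 to 0.987 (Pearson's r across probe sets, which are not independent replicates). The middle probe set of 18S ribosomal RNA averaged 273 ± 81.7 on arrays of mutant males, against 4009 ± 99.2 for wild-type males (SD, n = 3). For mutant females it averaged 126 ± 54.8, against 98.4 ± 11.4 for wild-type females, and the 3′ probe set of the same RNA read 40.1 to 61.0 for mutant females, against 73.8 to 102.8 for wild-type females. In males each of the 18S values differs along genotype, and in females those of the 3′ probe set do. In males the difference is the wider one, and genotype and RNA preparation cannot be told apart in any male value below. Eggshell and yolk transcripts summed to 5360, 3156 and 422.6 on the wild-type male arrays, replicates 1 to 3, and to 222.6 to 443 on the mutant male arrays, beside 64680 to 82170 on the female arrays. Testis transcripts summed to 1083 on mutant female replicate 1 and to 148.9 to 359.4 on the other female arrays. Results without the 3 arrays named last (wild-type male replicates 1 and 2 and mutant female replicate 1) are given where they differ. The mutated gene tko does not check the labels, since its probe set reads both alleles.

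CG5953 had the largest ratio between the genotypes of the 5 genes by its brighter probe set. That probe set read 7369.5, 7444.0 and 6133.6 in mutant males, against 522.8, 508.5 and 538.6 in wild-type males. In mutant females it read 5586.6, 4933.6 and 5033.8, against 283.9, 574.6 and 323.8 in wild-type females. All mutant arrays were above all wild-type arrays, and the nearest arrays stood 11.4-fold apart in males and 8.59-fold apart in females. The ratio of means was 13.3 in males and 13.2 in females, and the log2 fold change was 3.70 (standard error 0.10) in males and 3.74 (standard error 0.23) in females. Among 8341 probe sets that were tested in males and in females, it ranked 1st by the smaller of its 2 log2 fold changes and 3rd by their mean. Among all probe sets tested in a sex, it ranked 5th in males and 1st in females. The gene was picked for this difference, so the ranks of this probe set are a description. Its wild-type females spread most, with a coefficient of variation of 39.99%, while wild-type males had 2.88%. The probe set is tied to CG5953 by the platform annotation alone. The study's list of the genes changed most holds no CG5953. That list does hold a transposable element with the same ratios, 13.3 in males and 13.2 in females. Whether that entry rests on this probe set was not checked here.

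The second probe set of CG5953 gave another picture. It read 110.6, 93.6 and 115.3 in mutant males, against 69.5, 74.8 and 73.2 in wild-type males. In mutant females it read 202.1, 229.3 and 244.4, against 265.8, 229.5 and 192.6 in wild-type females. The male groups did not overlap, and the female groups overlapped throughout. The log2 fold change was 0.49 (standard error 0.14) in males and -0.02 (standard error 0.14, 95% interval -0.35 to 0.31) in females. In males it was not called, and it was called there after quantile normalization and without a variance trend. The ratio of means by this probe set was 1.47 in males and 0.982 in females, beside 13.3 and 13.2 by the brighter one. Both carry a suffix that Affymetrix gives to probe sets whose probes match several transcripts, which may come from different genes. Which transcripts each one reads, and whether all are of CG5953, was not analysed here.

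Such a gap was rare among genes read more than once. For 334 genes with 2 or more probe sets tested in both sexes, the log2 fold changes of the 2 brightest were compared. The gap of CG5953 was 3.22 in males and 3.76 in females, brighter minus dimmer. The median size of the gap was 0.21 in males and 0.13 in females, and the 95th percentile was 0.75 in males and 0.53 in females. A gap at least as large was found in 2 other genes in males, RFeSP at 4.04 and teq at -3.43, and in 1 other gene in females, RFeSP at 4.35. RFeSP encodes the Rieske iron-sulphur protein of complex III, and teq a serine protease. Both were named after their values were seen. CG5953 was picked for being higher in mutants, so a large gap follows where its other probe set moves little. The place of CG5953 among these genes is thus a description.

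**Figure D1:**
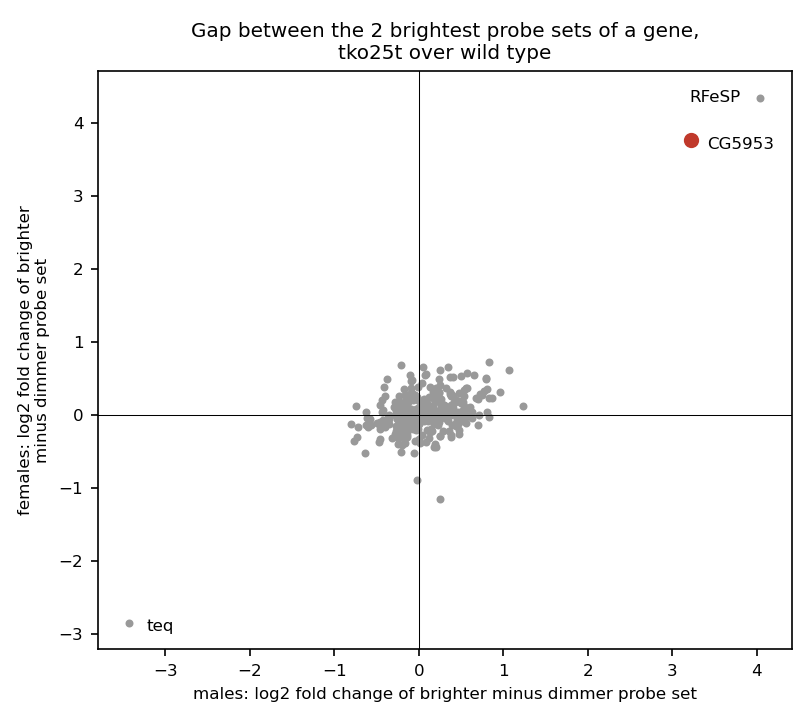
Each point is a gene with 2 or more probe sets tested in both sexes (334 genes). The axes give the log2 fold change, tko25t over wild type, of the brighter minus that of the dimmer probe set, for males (horizontal) and females (vertical). CG5953, in red, lies at 3.22 and 3.76, far from the cloud around 0, with RFeSP and teq as the other genes set apart.

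CG12057, the midgut gene, had the next largest difference. Its signal was 997.6, 1270.4 and 734.7 in mutant males, against 169.0, 79.4 and 193.7 in wild-type males. In females it was 2407.9, 3141.4 and 2574.5 in mutants, against 723.1, 426.0 and 411.8 in wild-type flies. Every mutant array was above every wild-type array of its sex, and the highest wild-type female array, at 723.1, came close to the lowest mutant male array, at 734.7. The ratio of means was 6.79 in males and 5.21 in females, with log2 fold changes of 2.72 (standard error 0.29) and 2.39 (standard error 0.22). The coefficient of variation was 26.8% in mutant males and 14.2% in mutant females, against 40.8% in wild-type males, where replicate 2 was the lowest array, and 33.8% in wild-type females.

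CG12780, the relative of the Gram-negative binding proteins, was read at 190.3, 172.6 and 188.8 in mutant males, against 52.6, 66.1 and 57.6 in wild-type males. In mutant females it was read at 171.9, 110.5 and 120.8, against 44.7, 46.4 and 41.4 in wild-type females. The groups did not overlap in either sex, and mutant female replicate 1 was apart from the other mutant females. The ratio of means was 3.13 in males and 3.04 in females, and the log2 fold change was 1.48 (standard error 0.13) in males and 1.37 (standard error 0.18) in females.

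CG30016, the transthyretin-like gene, had 205.9, 177.0 and 185.3 in mutant males, against 62.6, 96.1 and 59.1 in wild-type males. Mutant females had 160.6, 141.5 and 168.3, against 66.0, 62.0 and 39.0 in wild-type females. No mutant array overlapped the wild-type arrays of its sex. The ratio of means was 2.61 in males and 2.82 in females, and the log2 fold change was 1.28 (standard error 0.17) in males and 1.35 (standard error 0.19) in females. The mutant arrays were the tighter ones, with coefficients of variation of 7.86% in males and 8.80% in females, against 28.1% in wild-type males and 26.2% in wild-type females.

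Fst, the cold-induced gene, had a signal of 243.7, 242.6 and 206.0 in mutant males, against 111.8, 133.8 and 109.0 in wild-type males. In females it was 364.4, 218.9 and 258.0 in mutants, against 68.3, 53.8 and 100.1 in wild-type flies. All mutant arrays were above the wild-type arrays of the same sex, by a factor of at least 1.54 in males and 2.19 in females. The ratio of means was 1.95 in males and 3.79 in females, and the log2 fold change was 0.90 (standard error 0.13) in males and 1.77 (standard error 0.24) in females. Whether the 2 sexes differ in this fold was not tested, since the gene was picked for being higher in both.

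**Figure D2:**
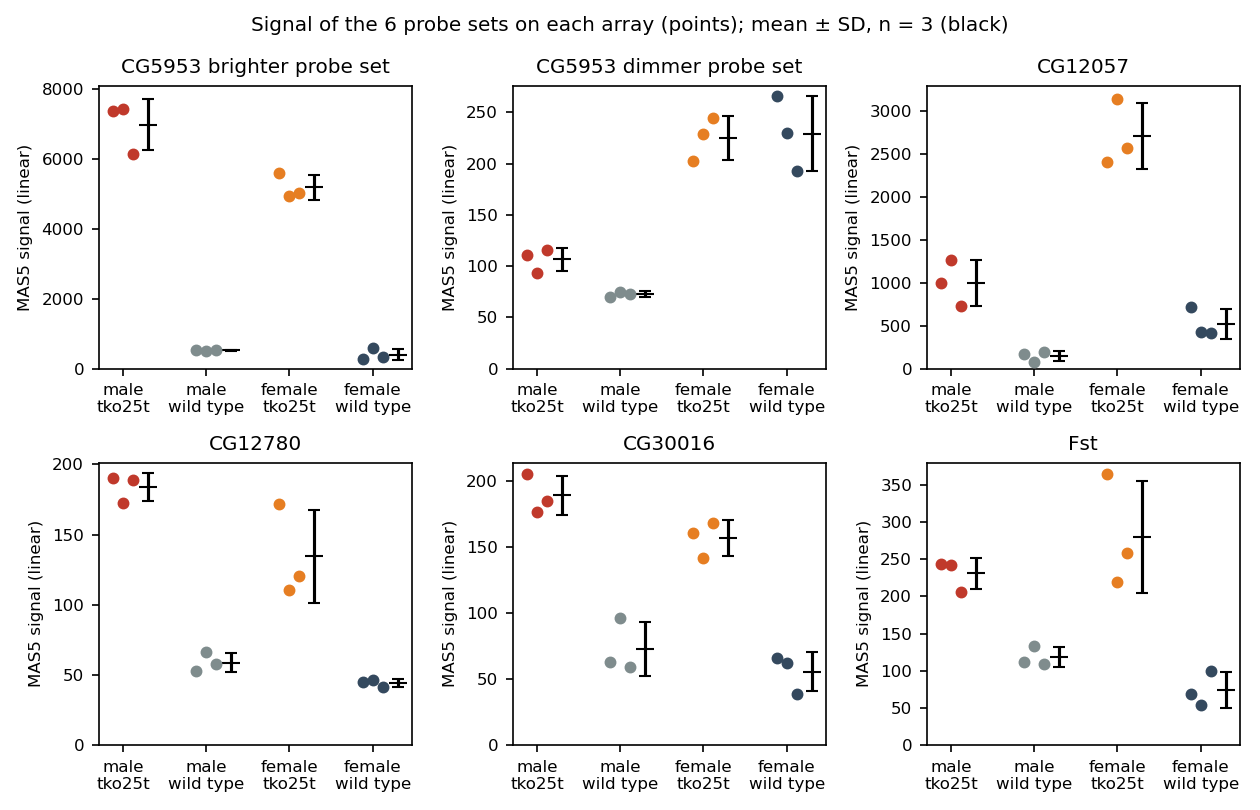
MAS5 signal (linear scale from 0) of the 6 probe sets on each of the 12 arrays, with a panel per probe set and the 4 groups along the horizontal axis. Points are arrays and black bars are the mean ± SD (n = 3). Mutant arrays lie above the wild-type arrays of their sex in each panel, other than for females with the dimmer CG5953 probe set, where 202.1 to 244.4 in mutants overlaps 192.6 to 265.8 in wild-type flies.

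Over the 6 probe sets, 5 were called higher in mutant males, where 5.51% of all those tested were higher and 11.1% were called in either direction. The same 5 were called higher in mutant females, where 1.43% of all those tested were higher and 2.05% were called in either direction. The dimmer CG5953 probe set was the one not called. Of probe sets tested in both sexes, 0.791% were called higher in both. The 3 mutant arrays were all above the 3 wild-type arrays for 6 of 6 probe sets in males, against 15.4% of all those tested, and for 5 of 6 in females, against 9.62%. As the genes were picked by this comparison, nothing follows from these counts. In females without mutant replicate 3 the brighter CG5953 probe set and CG12057 were called, and CG12780, CG30016 and Fst were not. Without wild-type replicate 1, Fst was not called in females.

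**Figure D3:**
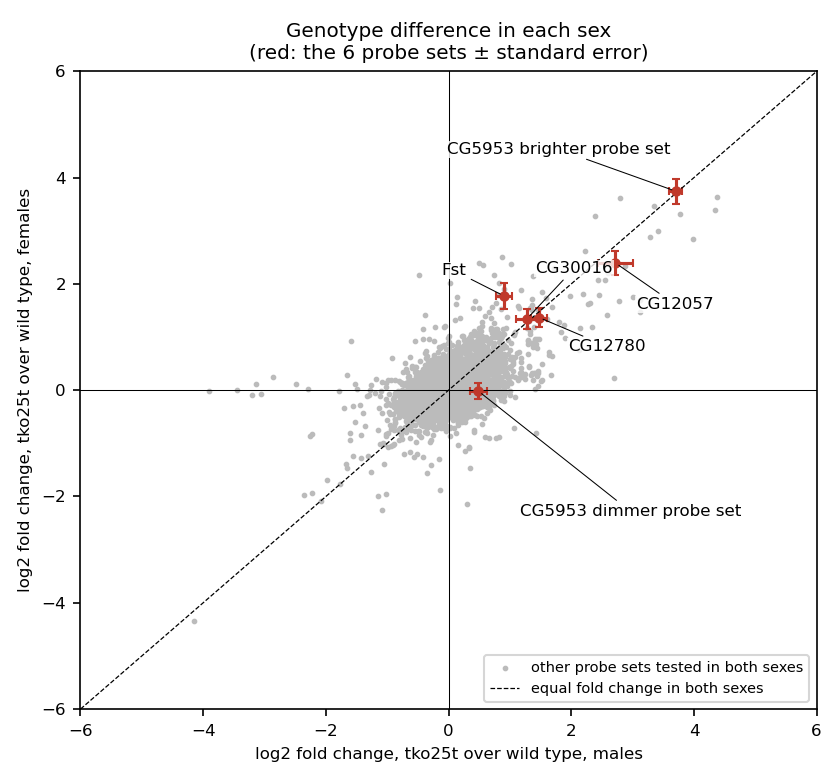
Log2 fold change, tko25t over wild type, in males (horizontal) and females (vertical) for each probe set tested in both sexes (grey) and for the 6 probe sets (red, with standard errors). The dashed line marks equal fold changes. CG5953 by its brighter probe set lies near the line at 3.70 and 3.74, Fst lies above it at 0.90 and 1.77, and the dimmer CG5953 probe set lies in the cloud of all others.

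Levels of tissue markers were set beside these values. Markers of the larval fat body, Lsp2, Fbp1 and Fbp2, summed to 3358 to 9245 in mutant males, against 774.7 to 1251 in wild-type males. In mutant females they summed to 5094, 283.7 and 1701 on replicates 1 to 3, against 213.9, 200.4 and 811.9 in wild-type females. Lsp1alpha, Lsp1beta and Lsp1gamma matched no probe set with a single symbol and are not in these sums. On mutant female replicate 2 Fbp1 read 50.4 (5.5 to 45.8 in wild-type females), Fbp2 67.4 (8.1 to 105.3) and Lsp2 165.9 (186.8 to 660.8). That array was picked out after its values were seen. Its larval sum was above those of wild-type female replicates 1 and 2 and below that of replicate 3. On it CG5953 read 4933.6 by its brighter probe set, CG12057 3141.4, CG12780 110.5, CG30016 141.5 and Fst 218.9. Each of these was above all wild-type female arrays. Of 12 midgut markers tested in each sex, 2 were called higher and 0 lower in mutant males (5.51% of all probe sets tested in males were called higher), and 2 were called higher and 0 lower in mutant females (1.43%). These were epsilonTry in both sexes, the regulator gene cad in males and the trypsin gene thetaTry in females, with log2 fold changes by limma of 0.48 for cad (adjusted p = 0.0260) and 1.05 for thetaTry (adjusted p = 0.0120). Of the 12 midgut markers, 3 in males and 8 in females had an unadjusted p under 0.05 by limma. Their median log2 fold change was 0.22 in males and 0.36 in females, beside -0.01 and -0.04 for all probe sets tested. Their summed signal was 20780 to 30030 in mutant males, against 18510 to 22940 in wild-type males, and 26760 to 28790 in mutant females, against 20190 to 22090 in wild-type females. Malpighian tubule markers, 10 genes, summed to 1928 to 2195 in mutant males, against 1900 to 1981 in wild-type males, and to 1706 to 1888 in mutant females, against 1272 to 1517 in wild-type females. Of the tubule markers, 1 of 8 tested in males and 2 of 7 tested in females were called higher and 0 lower, with median log2 fold changes of 0.00 in males and 0.49 in females. Oatp58Db, an organic anion transporter gene, was called higher in mutant males (log2 0.62, limma adjusted p = 0.0173) and in mutant females (0.95, adjusted p = 0.00618). Its relative Oatp58Da had 0.41 in males (limma adjusted p = 0.0783) and was called higher in mutant females (0.81, adjusted p = 0.0306). In females the summed midgut and tubule markers of all mutant arrays were thus above those of all wild-type arrays, while in males both sums overlapped. Of the female midgut sums, epsilonTry averaged 5134 of 27950 in mutants, against 2009 of 21240 in wild-type flies. The sums hold 12 of 18 planned midgut and 10 of 12 planned tubule markers. The others, the tubule marker Uro among them, matched no probe set with a single symbol. Blood cell markers, 9 genes, summed to 1076 to 1168 in mutant males, against 904.3 to 1133 in wild-type males, and to 1467 to 1582 in mutant females, against 1133 to 1220 in wild-type females. Of 7 blood cell markers tested in each sex, 2 were called higher in mutant males and 1 in mutant females, and 0 were called lower in either. NimC1, a phagocytosis receptor gene, was called higher in males (log2 0.95, limma adjusted p = 0.00401) and in females (1.37, adjusted p = 0.00996), and the GATA factor gene srp in males (0.69, adjusted p = 0.0169). The part of these tissues in the values of the 5 genes was not tested.

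The arrays were then searched for the genes whose log2 signals ran most like each of the 6 probe sets over the 12 arrays. Pearson's r is given as a measure of likeness, and the points share genotype and sex. For CG12057 the closest gene was epsilonTry (r = 0.98), a trypsin of the gut, followed by Ciao1 (r = 0.94), of cytosolic iron-sulphur cluster assembly, and CG5399 (r = 0.94). The epsilonTry signal was 2762.4, 3926.0 and 2024.2 in mutant males, against 1140.5, 876.5 and 1202.2 in wild-type males. In females it was 4543.4, 5409.4 and 5450.1 in mutants, against 2155.5, 2094.7 and 1776.5 in wild-type flies. Like CG12057 it was lower in males than in females, and both were lowest in replicate 2 of the wild-type males and had their highest male value in replicate 2 of the mutants. Its log2 fold change was smaller than that of CG12057, at 1.39 (standard error 0.22) in males and 1.35 (standard error 0.12) in females.

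**Figure D4:**
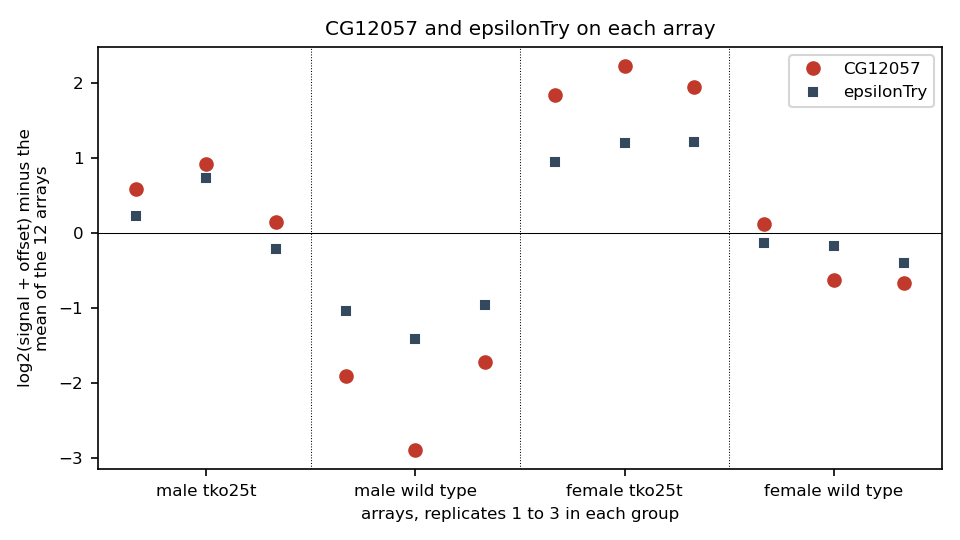
Log2(signal + 11.6) of CG12057 (circles) and epsilonTry (squares) on each array, minus each gene's own mean over the 12 arrays, with the 4 groups side by side. The 2 genes follow the same course over groups and arrays (r = 0.98), and the swings of CG12057 are the wider ones.

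All of the genes, CG12057 included, were picked for a difference between the genotypes. Their likeness to each other and to other genes that differ follows in part from that choice. For CG5953 by its brighter probe set the closest were CG12780 (r = 0.97), Arc1 (r = 0.96), a gene of synaptic RNA transfer, and the cytochrome P450 gene Cyp6a23 (r = 0.95). For CG12780 they were Cyp6a20 (r = 0.97), another P450 gene, Cyp6a23 (r = 0.97) and CG5953 (r = 0.97), and for CG30016 they were Cyp6a20 (r = 0.97), CG12780 (r = 0.96) and CG5953 (r = 0.95). For Fst they were the glutathione S-transferase gene GstE10 (r = 0.96), the peptidase gene ome (r = 0.94) and Arc1 (r = 0.94). Cyp6a23 had log2 fold changes of 3.28 (standard error 0.22) in males and 2.88 (standard error 0.37) in females, and Cyp6a20 had 0.68 (standard error 0.12) and 0.71 (standard error 0.11), so genes of a like course had folds of unlike size. The dimmer CG5953 probe set was most like other genes altogether, l(1)G0289, the kinase gene Sik3 and the RNA-binding protein gene shep (r = 0.99 for each), whose signals were higher on every female array than on every male array. Its r with the brighter probe set of the same gene was 0.06.

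The difference between the sexes was not used to pick the genes and was tested in each genotype. The middle 18S probe set averaged 4009 in wild-type males, against 98.4 in wild-type females. In mutants it averaged 273 in males, against 126 in females, and male and female arrays did not overlap. Sex and RNA preparation thus cannot be told apart in either genotype. The largest log2 difference was that of CG12057, which was lower in males. Mutant males averaged 1001 ± 268 and mutant females 2708 ± 385, and wild-type males averaged 147 ± 60.1 and wild-type females 520.3 ± 176 (SD, n = 3). Males minus females, the log2 difference was -1.45 in mutants (standard error 0.30, limma adjusted p = 9.47e-04) and -1.78 in wild-type flies (standard error 0.30, adjusted p = 1.58e-04), and groups did not overlap in either genotype. The adjusted p stayed between 1.04e-04 and 0.00666 over all alternatives in both genotypes.

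The dimmer CG5953 probe set was also lower in males, with a smaller standard error and smaller adjusted p-values than CG12057 and with a log2 difference of -1.005 in mutants (standard error 0.14, limma adjusted p = 2.84e-05) and -1.51 in wild-type flies (standard error 0.14, adjusted p = 5.44e-07). By the brighter one the difference was 0.43 in mutants (standard error 0.20, adjusted p = 0.0738) and 0.47 in wild-type flies (standard error 0.20, adjusted p = 0.0492), where males and females overlapped. This last call was lost in 15 of 19 alternatives, whose adjusted p-values ran between 1.46e-04 and 0.232 over all 19. Leaving out any 1 array ended it, other than wild-type female replicate 2. In mutants the difference was called without wild-type female replicate 1 or 2 and after quantile normalization (adjusted p = 0.00433 to 0.0462).

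CG12780 was higher in mutant males than in mutant females, by log2 0.44 (standard error 0.16, limma adjusted p = 0.0250), and in wild-type flies the difference was 0.33 (standard error 0.16, adjusted p = 0.0750), or past the threshold without mutant female replicate 1 (adjusted p = 0.0339). The call in mutants was lost without mutant male replicate 1 or 3 or mutant female replicate 2 or 3 (adjusted p = 0.0672 to 0.104). Fst was higher in wild-type males than in wild-type females, with a log2 difference of 0.63 (standard error 0.21, limma adjusted p = 0.0157). In mutants the difference for Fst was -0.24 (95% interval -0.69 to 0.21, adjusted p = 0.318). The call in wild-type flies was lost without wild-type male replicate 2 or wild-type female replicate 2, and without the 3 arrays that hold other-sex transcripts (adjusted p = 0.0587 to 0.108). For CG30016 neither difference passed, with 0.26 (95% interval -0.16 to 0.68) in mutants and 0.32 (95% interval -0.10 to 0.74) in wild-type flies.

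In all, 3 of 6 probe sets were called between the sexes in mutants, against 66.6% of all tested, and 4 of 6 in wild-type flies, against 72.4%. Of these, 1 was higher in mutant males (26.4% of all) and 2 were lower (40.2%), and 2 were higher in wild-type males (29.4%) and 2 lower (43.0%). These shares are near or below those of all probe sets. All 3 male arrays were above all 3 female arrays for 3 of 6 probe sets in mutants (28.6% of all) and for 2 in wild-type flies (30.3%), and they were below for 2 in mutants (43.6%) and 2 in wild-type flies (44.0%). The median log2 difference of all probe sets tested was -0.16 in mutants and -0.17 in wild-type flies.

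**Figure D5:**
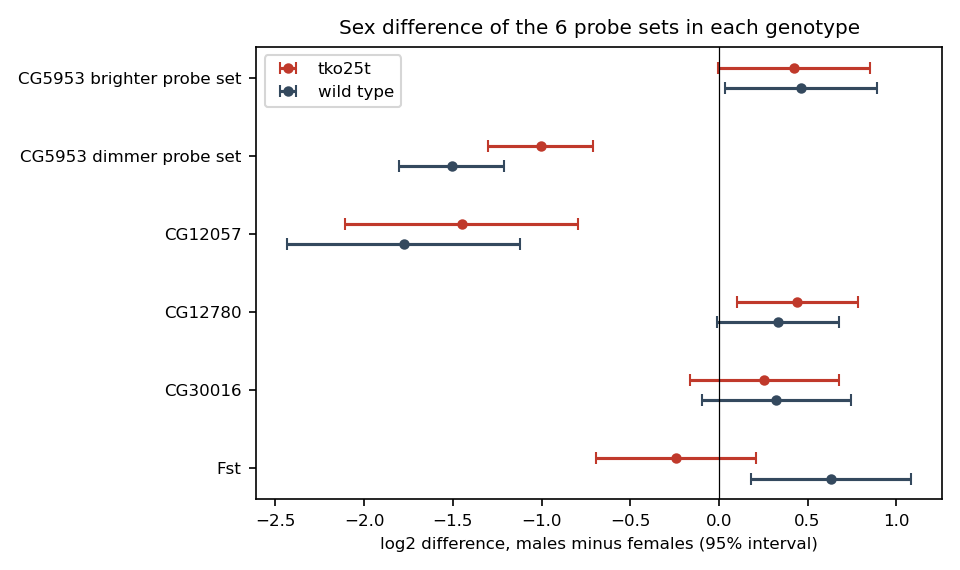
Log2 difference of males minus females for the 6 probe sets, with 95% intervals, in tko25t flies (red, upper of each pair) and wild-type flies (dark blue, lower). CG12057 and the dimmer CG5953 probe set lie below 0 in both genotypes, from -1.005 to -1.78, while the other probe sets lie between -0.24 and 0.63.

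The genes on either side of the 5 genes were examined next, the 2 nearest on each side in the RefSeq gene table. Of these 20 places 12 hold a gene with a probe set of its own, 8 of which were bright enough to be tested in males and 9 in females. None was called higher in mutants by limma in either sex, and 2 were called lower in males (5.63% of all probe sets tested in males were). In females 0 of the 9 were called by limma (0.614% of all were called lower), 1 had an unadjusted p under 0.05, and SAM called 0. The median log2 fold change was -0.16 in males and -0.06 in females, beside -0.01 and -0.04 for all probe sets tested.

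Next to CG5953 lies Tpr2, a co-chaperone gene, which averaged 561.5 in mutant males, against 556.8 in wild-type males, and 512.6 in mutant females, against 520.6 in wild-type females (n = 3). Tpr2 had log2 fold changes of 0.01 in males (standard error 0.09) and -0.03 in females (standard error 0.12), with limma adjusted p-values of 0.944 and 0.954. CG12056, next to CG12057, had -0.21 in males (standard error 0.16) and 0.14 in females (standard error 0.14), with limma adjusted p-values of 0.422 and 0.692. Fst lies within the span of Dh44, which encodes a diuretic hormone and whose log2 fold change was -0.02 in males (limma adjusted p = 0.962) and 0.13 in females (adjusted p = 0.728). The 2 neighbours called lower in males were the P450 gene Cyp6a14, beside CG12780, at -0.64 (standard error 0.15, adjusted p = 0.0296), and CG12106, beside CG12057, at -0.53 (standard error 0.14, adjusted p = 0.0433). Neither was called in females, nor by SAM in either sex.

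Genes with roles like those of CG12780, CG30016 and Fst were looked at as lists. Among 9 other pattern recognition genes tested in each sex, of the GNBP and PGRP families, none was called by limma in males or in females, with 3 and 2 at an unadjusted p under 0.05 and 0 and 1 called by SAM. Of all probe sets tested 11.1% were called in males and 2.05% in females. Another 8 genes of this list, PGRP-SC1b and PGRP-SD among them, matched no probe set with a single symbol and are not counted. The study lists PGRP-SC1b as higher in mutant females and unchanged in males, and reports PGRP-SD as higher in mutant males. The median log2 fold change of the 9 was 0.22 in males and 0.15 in females, beside -0.01 and -0.04 for all probe sets. GNBP3, a sensor of fungal glucans, had 0.41 (adjusted p = 0.0757) in males and 0.32 (adjusted p = 0.260) in females. PGRP-SC2, an amidase of the gut and the gene called by SAM in females, had 0.45 in males (limma adjusted p = 0.120) and 0.89 in females (adjusted p = 0.117).

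Of 9 other genes of purine and urate breakdown tested in males, 1 was called higher and 2 were called lower, where 5.51% of all probe sets were called higher and 5.63% lower. These were mal, a molybdenum cofactor sulfurase gene, at 0.66 (limma adjusted p = 0.0161), CG18128 at -0.55 (adjusted p = 0.0472) and the adenosine deaminase-related gene Adgf-A2 at -0.52 (adjusted p = 0.0260). Of 7 tested in females 0 were called by limma, with 2 at an unadjusted p under 0.05 and 1 called by SAM. The medians were 0.10 in males and 0.16 in females. Uro, the urate oxidase gene, matched no probe set with a single symbol and is not counted. The study lists Uro as higher in mutants of both sexes, past its threshold in females alone.

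Of 13 other genes of the cold and desiccation response tested in males, 1 was called higher and 3 were called lower, again beside 5.51% and 5.63% of all probe sets. The chaperone cofactor gene stv was higher at 0.58 (limma adjusted p = 0.0108). Hsp26 was lower at -0.70 (adjusted p = 0.0362), the humoral stress gene TotC at -1.56 (adjusted p = 0.0181) and the cold acclimation gene Dca, or smp-30, at -1.07 (adjusted p = 9.44e-04). In females 0 of 13 were called by limma, with 1 at an unadjusted p under 0.05 and 0 called by SAM, and the median was -0.06, against 0.06 in males. Dca had -0.998 in females (adjusted p = 0.290). Another 12 genes of this list, Hsp22, Hsp23 and TotX among them, matched no probe set with a single symbol and are not counted. The study lists Hsp22 and Hsp23 as higher in mutants of both sexes. It lists TotX as lower in both, past its threshold in males alone.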

How the data were processed

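The deposited values are MAS5 signals, a linear intensity per probe set, which the authors computed with Affymetrix GCOS software and scaled array by array. All 12 arrays had a trimmed mean of 150, and no further scaling was applied. The 183 control probe sets took part in no test. The platform annotation gives a single symbol to 13646 probe sets, more than 1 to 402 and none to 4721. The study filtered on detection calls, which were not used here, so as many probe sets as passed that filter in each sex were taken, from the top by mean signal. Signals were raised by 11.6, put on the log2 scale and fitted with limma 3.58.1 (R 4.3.3) with a variance trend and Benjamini-Hochberg adjustment, genotypes within each sex and sexes in a fit of 4 group means over 12 arrays, on the 11547 probe sets tested in either sex. SAM with the settings of the study's methods (s0 = 20, fold above 1.5, FDR under 2.5%) was written anew as an alternative. Summaries were made in Python 3.11.15 (pandas 2.3.3, numpy 2.4.6, scipy 1.17.1).

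Tested on simulated data, the limma fit found 73% (males) and 79% (females) of genes changed by log2 1, and 90% in each sex of those changed by log2 2. In that test 100 probe sets were changed by each amount, and 14 unchanged ones were called in males and 5 in females. The data may hold another number of changed genes, so the share found in them may differ. A gene with several probe sets was represented by the one of highest mean signal, other than CG5953. The genes and lists were chosen with earlier results of these data known. The rule names every probe set of the 5 genes, their neighbours and the 3 genes most like each probe set. It also names, in each list, the 2 called genes with the largest change. For the larval fat body, testis, and eggshell and yolk markers sums are given instead. Values of other list members, and of the larval fat body markers on mutant female replicate 2, were added here after they were seen. RefSeq (Release 6) served for names and neighbours. Protein and promoter sequences were not used here, so paralogs and motifs were not analysed.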

Additional observations from a re-analysis of the deposited data

How the results depend on the processing

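The 5 probe sets called higher in mutants kept their call in males under all 15 alternatives, and the dimmer CG5953 probe set joined them under 2. Left out 1 at a time, the arrays gave 5 called probe sets in males and 2 to 5 in females, where the 2 came without mutant replicate 3. For the sexes they gave 2 to 4 in mutants and 2 to 4 in wild-type flies. Without the 3 arrays that hold other-sex transcripts, 2 were called between wild-type males and females, the dimmer CG5953 probe set and CG12057, in a fit that leaves 1 wild-type male array and assumes that it varies like the other groups. No log2 fold change of a called probe set changed sign. The offset moved the folds of the dimmer probe sets most, and 4 times the offset gave CG12780 1.13 in males and 0.98 in females, against 1.65 and 1.61 by the ratio of mean signals.

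Same-numbered arrays of the genotypes did not deviate together in every pair (r = -0.116 to 0.0996 in males and -0.00457 to 0.374 in females) and the labels do not say whether a number marks a shared cross, so the arrays were not taken as paired, although 2 of the 3 female pairs had r of 0.336 and 0.374. With the replicate number as a block the called probe sets numbered 5 in males, 5 in females, 4 between the sexes in wild-type flies and 3 in mutants. The block moved the calls over all probe sets to 950 in males and 324 in females, against 1126 and 200 in the fits without it. SAM called 608 and 296. Leaving out 1 array gave 436 to 791 in males and 52 to 459 in females, and leaving out the 3 arrays gave 170 and 128. No filter gave 838 and 130, and the fit of 4 groups gave 805 and 306. The neighbours and lists were tested with the main settings and SAM alone. With 3 arrays in a group the number of arrays limits every value.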
